A study of Mus musculus with 3 samples.

Results

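Peaks of DLX3 and of H3K4me3 were examined at a set of p53 pathway genes in suprabasal keratinocytes, epidermal cells that have left the basal layer and are differentiating. The set holds 10 genes, Trp53, Mdm2, Cdkn1a, Sfn, Btg2, Plk3, Gadd45a, Bbc3, Ccng1 and Zmat3, of the 21883 protein-coding genes placed on the mouse chromosomes. Each gene was represented by a window, its span on mm10 with 20 kb added on either side, and every peak sharing at least 1 bp with that window was taken. The peaks come from chromatin immunoprecipitation with sequencing (ChIP-seq), which reads the DNA that an antibody pulls down together with its target. DLX3 is a homeodomain transcription factor of differentiating epidermis, and H3K4me3, trimethylated lysine 4 of histone H3, is a mark of active promoters. There was 1 library for each of the anti-DLX3 antibody, the anti-H3K4me3 antibody and nonspecific immunoglobulin (IgG), all from wild-type BALB/c mice with no treatment named. The mice are adult by the sample labels, whereas the design text speaks of neonatal epidermis, and which holds was not settled. The DLX3 list held 18087 peaks and the H3K4me3 list 16735. The IgG library was not analysed here. With 1 library per antibody no value below has a replicate error and no difference was tested. The values describe these 2 lists, whose read depth is unknown.

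The transcription factor p53 is held at a low level by the ubiquitin ligase Mdm2, whose own gene it activates, and it accumulates when DNA is damaged. Its target genes arrest the cell cycle, start apoptosis, or feed back on p53. In epidermis the related factor p63 maintains the stratified epithelium and recognises DNA motifs like those of p53, and exit from the cell cycle accompanies the move of keratinocytes out of the basal layer.

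DLX3 peaks were found in the windows of 9 of the 10 genes, and at 6 of the 9 genes with a listed start a DLX3 peak lay over the start itself. Btg2 had 10 DLX3 peaks, Sfn 8 and Cdkn1a 5, while Zmat3 had none. Among all protein-coding genes, 52.5% had a DLX3 peak in the same kind of window, and among the 15586 genes with H3K4me3 in the window 70.6% had one. All 10 genes had an H3K4me3 peak, against 71.2% of all protein-coding genes. A DLX3 peak that overlapped H3K4me3 was present at 8 of the 10 genes, against 42.5% of all protein-coding genes. That share is 9297 of 21883 genes and counts genes without H3K4me3 too. Only 15586 genes had H3K4me3 in the window, so 42.5% is too low a background for marked genes. The share over marked genes alone was not computed. As all 10 genes were marked, 70.6% is the closer background, and their count of 9 was not tested against it. With only the top 20% of each list by score, 5 of the 10 genes kept a DLX3 peak (18.1% of all protein-coding genes did) and 2 kept one that overlapped H3K4me3 (7.39% of all did). Under that limit 27.0% of all protein-coding genes were still marked, against 8 of the 10, so 7.39% is not a matched background. Of these 8 genes, 4 kept a DLX3 peak, against 39.7% of all genes so marked.

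**Figure D1:**
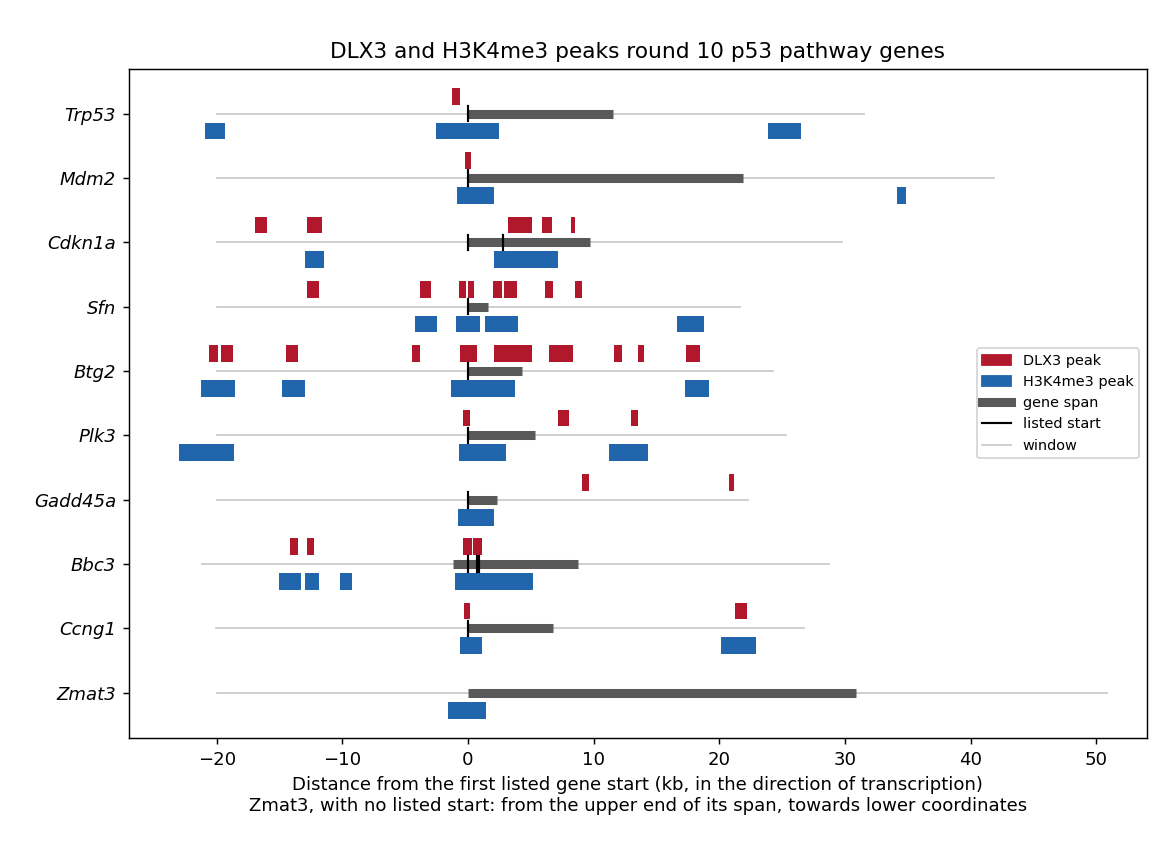
Positions of DLX3 peaks (red, above each line) and H3K4me3 peaks (blue, below) round the 10 genes, as distance in kb from the first listed gene start in the direction of transcription. Thin lines are the windows, thick lines the gene spans and black ticks the listed starts. Zmat3, without a listed start, is drawn from the upper end of its span. Btg2 and Sfn carry DLX3 peaks on both sides of the gene, and Mdm2 has its only DLX3 peak at the start.

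The windows held 36 DLX3 peaks and 26 H3K4me3 peaks. Of the 36 DLX3 peaks, 24 (66.7%) overlapped H3K4me3, against 42.1% of all DLX3 peaks. Windows drawn round genes hold more promoter than the rest of the genome does, so the latter figure is not a matched one. Peaks of the same window are not independent of each other, so no interval is given. By position, 8 peaks were centred inside the gene span, 15 upstream and 13 downstream. Sfn and Btg2 together held 18 of the 36. For 28 of the 36 the nearest listed start of a protein-coding gene was that of the p53 pathway gene, and the other 8 lay nearer to Chit1 and Ccdc9 (2 peaks each) or to Wrap53, Btbd19, Tctex1d4 and Nudcd2 (1 each).

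DLX3 peaks were most numerous at Btg2 and Sfn. The median protein-coding gene had 1 DLX3 peak in its window and the 95th percentile was 4. The 10 peaks of Btg2 were matched or exceeded at 0.375% of protein-coding genes, the 8 of Sfn at 0.827%, and the 5 of Cdkn1a at 4.15%. Among genes with H3K4me3 in the window, 5.79% had 5 or more, as 3 of the 10 genes did. At least 3 peaks were found at 5 of the 10 genes and at 14.7% of all protein-coding genes. The windows were not longer than usual, with a median of 48251 bp against 57170 bp over all protein-coding genes.

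**Figure D2:**
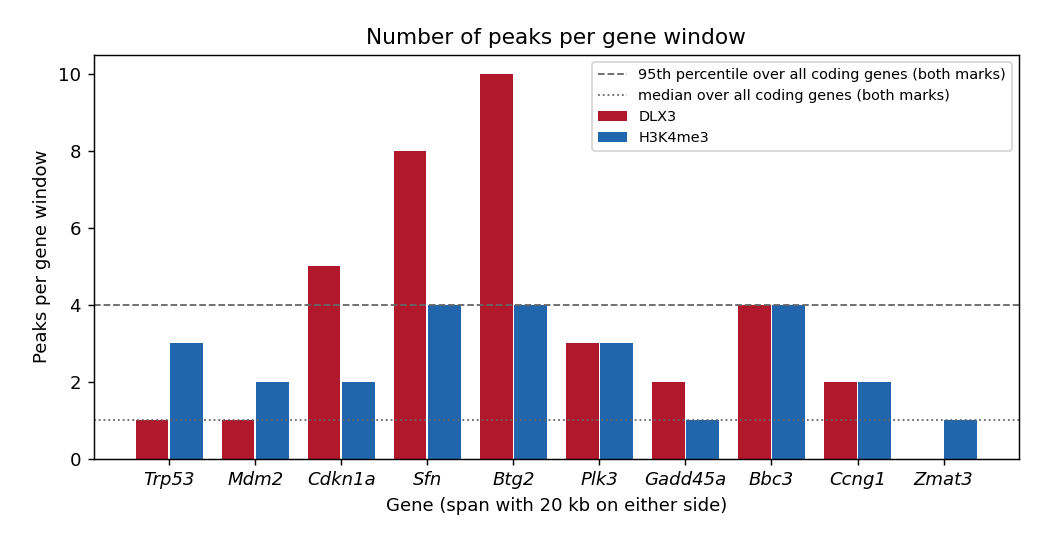
Number of DLX3 peaks (red bars) and H3K4me3 peaks (blue bars) in the window of each gene. The dotted and dashed lines give the median (1 peak) and the 95th percentile (4 peaks) over all protein-coding genes, which were the same for both marks. Btg2, Sfn and Cdkn1a exceed the 95th percentile for DLX3, and no gene exceeds it for H3K4me3.

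The 250 bases upstream of the starts that the results turn on are printed from RefSeq (GRCm38.p6, the assembly of mm10), 5′ to 3′ on the strand of the gene. Capitals mark CCAAT boxes, GGGCGG boxes (the motif of Sp and Klf factors), each on either strand, and matches to the p53 decamer consensus, the unit that is repeated in a p53 response element. Cdkn1a is shown at both listed starts because only the later one carries H3K4me3, Sfn, Btg2, Plk3 and Mdm2 because a DLX3 peak lies over the start, and Gadd45a because H3K4me3 lies there without DLX3.
Cdkn1a, first start, chr17:29090729-29090978, plus strand: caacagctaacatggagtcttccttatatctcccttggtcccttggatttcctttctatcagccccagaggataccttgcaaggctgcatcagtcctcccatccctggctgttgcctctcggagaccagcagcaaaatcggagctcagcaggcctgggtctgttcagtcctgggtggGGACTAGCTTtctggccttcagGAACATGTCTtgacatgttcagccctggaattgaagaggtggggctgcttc
Cdkn1a, later start, chr17:29093519-29093768, plus strand: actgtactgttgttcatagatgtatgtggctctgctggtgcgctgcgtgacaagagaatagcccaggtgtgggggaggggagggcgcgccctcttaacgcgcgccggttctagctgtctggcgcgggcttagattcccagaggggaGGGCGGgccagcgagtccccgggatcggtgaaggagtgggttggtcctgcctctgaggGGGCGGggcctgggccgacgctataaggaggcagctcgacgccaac
Sfn, chr4:133602169-133602418, minus strand: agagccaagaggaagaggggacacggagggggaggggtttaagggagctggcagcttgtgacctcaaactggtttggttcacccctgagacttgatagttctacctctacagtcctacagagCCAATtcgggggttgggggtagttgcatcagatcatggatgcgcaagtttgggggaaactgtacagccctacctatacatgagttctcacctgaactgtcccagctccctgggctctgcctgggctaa
Btg2, chr1:134079156-134079405, minus strand: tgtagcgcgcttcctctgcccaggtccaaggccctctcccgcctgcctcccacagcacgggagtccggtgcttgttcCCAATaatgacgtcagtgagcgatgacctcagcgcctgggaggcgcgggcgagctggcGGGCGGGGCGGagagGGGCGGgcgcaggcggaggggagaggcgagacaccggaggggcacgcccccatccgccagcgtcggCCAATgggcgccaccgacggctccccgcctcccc
Plk3, chr4:117133964-117134213, minus strand: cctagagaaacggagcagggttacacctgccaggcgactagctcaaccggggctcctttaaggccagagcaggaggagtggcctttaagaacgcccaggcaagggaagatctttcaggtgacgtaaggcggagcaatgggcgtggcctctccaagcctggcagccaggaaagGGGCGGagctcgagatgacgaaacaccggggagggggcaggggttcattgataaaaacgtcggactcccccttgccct
Mdm2, chr10:117710759-117711008, minus strand: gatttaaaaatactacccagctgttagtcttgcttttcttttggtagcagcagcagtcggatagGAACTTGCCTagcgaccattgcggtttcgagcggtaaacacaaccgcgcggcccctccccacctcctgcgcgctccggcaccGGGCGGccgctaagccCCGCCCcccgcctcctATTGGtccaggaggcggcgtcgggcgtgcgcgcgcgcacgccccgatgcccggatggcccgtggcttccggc
Gadd45a, chr6:67037408-67037657, minus strand: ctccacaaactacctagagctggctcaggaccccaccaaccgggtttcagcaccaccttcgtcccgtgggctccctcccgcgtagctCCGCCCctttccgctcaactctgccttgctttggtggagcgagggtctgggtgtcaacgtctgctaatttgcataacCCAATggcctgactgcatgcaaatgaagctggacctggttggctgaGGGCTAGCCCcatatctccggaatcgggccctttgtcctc

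All 250 bases shown for Btg2, Plk3 and Mdm2 lay under a DLX3 peak. Of the Sfn bases, 83 did, and none did for Gadd45a or for either start of Cdkn1a. H3K4me3 covered all the bases shown except those at the first start of Cdkn1a, where it covered none. Of the 12 listed starts of the 9 genes, 7 had their whole 250-base window under DLX3 and 11 under H3K4me3. Both counts include the 3 starts of Bbc3, whose later windows overlap each other, so they are not counts of genes. The same shares over all listed starts were not computed.

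The p53 decamer consensus was found in 5 of the 12 windows, those of Trp53, Mdm2, Gadd45a, Ccng1 and the first start of Cdkn1a, and in 7.13% of the 32851 windows of the promoter table. It was searched after the sequences had been seen, and it is a palindrome, so that both strands are covered. At the first start of Cdkn1a the match GAACATGTCT lay at positions -51 to -42 from the start, with another, GGACTAGCTT, at -73 to -64. A pair of CNNG cores at the spacing of a full p53 response element was in 11 of the 12 windows, but also in 63.5% of all. CCAAT was in 7 of the 12 (33.8% of all) and GGGCGG in 8 (32.7%), where overlapping GGGCGG matches occur at Btg2 and Bbc3. The 8 include every window of Bbc3, whose later windows overlap each other, so this is not a count of genes. CATG was in 3 of the 12 (53.9% of all) and TATAAA in 1 (12.4%). The homeodomain motifs TAATTA and TAATTG and the AP-1 motif TGANTCA were in none of the 12, against 4.84%, 7.17% and 6.75% of all windows, on either strand. The windows of the 9 genes had a G and C content between 52.8% (Trp53) and 81.6% (a start of Bbc3), with a median of 52.4% over the table. Zmat3 is not in the promoter table. Peaks outside these windows were not searched for motifs.

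At the regulators themselves, Trp53 and Mdm2, DLX3 was limited to 1 peak each, near or on a strongly marked promoter. Trp53 encodes p53 (chr11:69580348-69591873). Its DLX3 peak, chr11:69579124-69579701, had a score of 73.39, below the list median of 83.35. The score is the peak caller's own measure of evidence, which grows with depth and peak width, so that DLX3 and H3K4me3 scores are not comparable with each other. The peak was centred 947 bp upstream of the Trp53 start and 163 bp from a start of Wrap53, the neighbour on the opposite strand, which encodes a protein of the telomerase complex, and its near edge stayed 658 bp from the Trp53 start. The starts of both genes lay under 1 H3K4me3 peak of 5010 bp with a score of 3100. That score is a ceiling shared by 766 H3K4me3 peaks, while 141 stand above it. Mdm2 (chr10:117688875-117710758) had a DLX3 peak of score 90.8, chr10:117710538-117711034, centred 28 bp upstream of its start. It lay inside an H3K4me3 peak of 2968 bp and score 2681.4. A further H3K4me3 peak in the 3′ flank of Mdm2 scored 53.58, near the lower limit of the list, and held no DLX3.

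Cdkn1a encodes p21, an inhibitor of cyclin-dependent kinases and the main arrest gene of p53 (chr17:29090979-29100722). None of its 5 DLX3 peaks lay over a listed start. Inside the gene lay peaks of score 107.82 (chr17:29094144-29096072, 1929 bp wide), 69.81 and 55.06, and the nearest edge was 375 bp past the later start. Upstream lay peaks of score 151.62 and 226.54, centred 16471 and 12201 bp before the first start. The higher of these, chr17:29078177-29079379, overlapped a weak H3K4me3 peak of score 77.82. It also covered 1 end of the noncoding RNA gene Trp53cor1 (chr17:29057474-29079126, known as lincRNA-p21), the one with the higher coordinate, facing Cdkn1a. Whether that end is the start of Trp53cor1 was not read here. The main H3K4me3 peak of Cdkn1a, 5091 bp wide and at the ceiling score, began 2063 bp after the first start and covered the later start, 2790 bp from the first. The p53 decamers before the first start therefore lay outside every peak of both lists.

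Sfn encodes stratifin, an epithelial 14-3-3 protein that keeps mitotic kinase out of the nucleus (chr4:133600556-133602168). Its 8 DLX3 peaks spread over both flanks of a gene of only 1613 bp. The peak over the start, chr4:133601723-133602197, had a score of 214.66. On the upstream side the scores were 61.33 at 453 bp, 238.25 at 3362 bp and 238.97 at 12341 bp, the last 2 inside the span of the neighbour Zdhhc18. On the downstream side they were 197.31 at 2377 bp from the start, 122.07 at 3371 bp, 200.37 at 6483 bp and 162.79 at 8789 bp. Of the 8, 5 were in the top 10% of DLX3 scores and 5 overlapped H3K4me3. The H3K4me3 signal of Sfn was broken into 3 peaks, each holding DLX3. The peak over the start scored 379.96 and a peak 2660 bp downstream of it scored 1830, so that the stronger H3K4me3 was centred past the 3′ end of the gene.

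Btg2, an antiproliferative gene whose product recruits the machinery that removes the tails of mRNAs (chr1:134074865-134079155), carried the largest number of DLX3 peaks of the 10 genes. The peak over its start, chr1:134078445-134079795, had a score of 291.17, rank 506 of the list. A peak of 3069 bp, chr1:134074024-134077092, with a score of 223.04, covered the 3′ part of the gene. The highest score in the window, 323.48, belonged to chr1:134060655-134061789, centred 17933 bp downstream, at the noncoding gene Gm19497. On the other side a peak of score 241.6 was centred 13994 bp upstream, within the noncoding gene Gm32039. The remaining 6 scores ran from 53.43 to 156.05. Of the 10 peaks, 6 overlapped H3K4me3, and 4 H3K4me3 peaks lay in the window. The one over the start was 5111 bp wide with a score of 3026.96, and the other 3 scored between 250.08 and 303.97. Summed, DLX3 peaks took up 11954 bp at Btg2, 5800 bp at Sfn and 5287 bp at Cdkn1a.

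**Figure D3:**
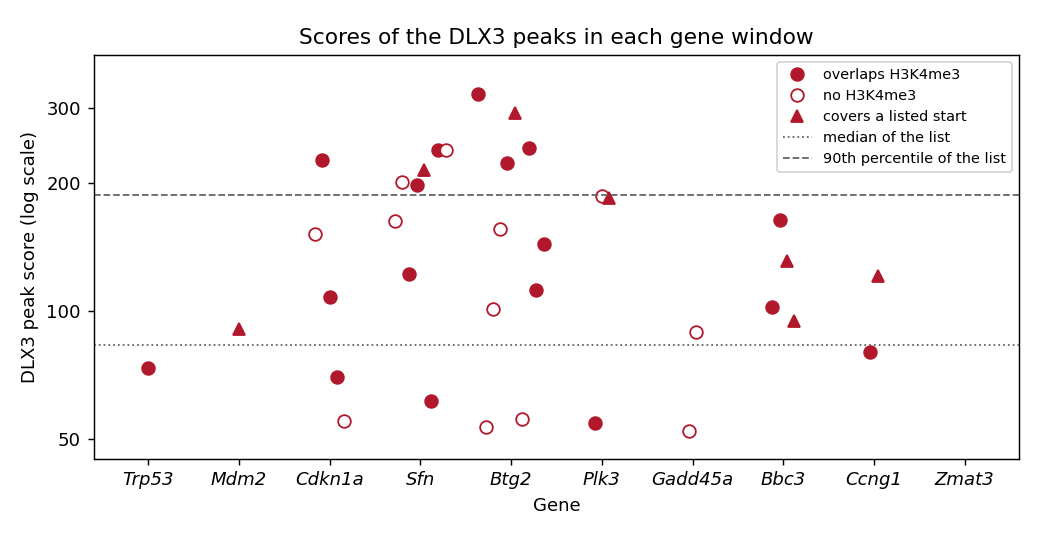
Score of each of the 36 DLX3 peaks by gene, on a log axis, with points of a gene spread in genomic order. Filled symbols overlap H3K4me3, open ones do not, and triangles cover a listed start. The dotted line is the median of all DLX3 peaks (83.35) and the dashed line their 90th percentile (187); the 10 points above the dashed line belong to Sfn, Btg2 and Cdkn1a.

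As a group the 36 DLX3 peaks had a median score of 126.71, and 27 of them stood at or above the list median. In the top 10% of scores were 10 of them, namely 5 at Sfn, 4 at Btg2 and 1 at Cdkn1a. Their median width was 720.5 bp, against 627 bp for the list.

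Plk3, a polo-like kinase of the stress response (chr4:117128655-117133963), had a DLX3 peak of score 184.28 over its start, chr4:117133789-117134396. A peak of nearly the same score, 186.69, chr4:117125951-117126785, was centred 445 bp from the start of the neighbour Tctex1d4 and overlapped no H3K4me3. The lowest, 54.68, lay nearest to Btbd19. H3K4me3 over the Plk3 start was 3729 bp wide with a score of 2252.76.

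Gadd45a, a growth arrest gene induced by DNA damage (chr6:67035096-67037407), had H3K4me3 without DLX3 at the promoter. Its H3K4me3 peak was 2837 bp wide with a score of 2056.05 and also covered the start of the opposite-strand noncoding gene E230016M11Rik. The 2 DLX3 peaks, of score 89.28 (chr6:67027785-67028346) and 52.18, were both downstream and unmarked, and the nearer one ended 6750 bp from the gene.

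Ccng1 encodes cyclin G, a partner of protein phosphatase in the feedback on Mdm2 (chr11:40748552-40755309). The DLX3 peak over its start, chr11:40755089-40755626, had a score of 120.77 and lay within H3K4me3 of 1717 bp and score 1391.06. Its other DLX3 peak, of score 80.11, was centred 111 bp from the start of Nudcd2.

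Bbc3, the gene of the proapoptotic protein PUMA (chr7:16308398-16318334), has 3 listed starts, and all 3 lay under DLX3. The peak chr7:16309190-16309898, of score 131.35, covered the first start, and chr7:16309944-16310701, of score 94.92, covered the other 2. Both lay within an H3K4me3 peak of 6259 bp at the ceiling score, the widest of the 26 in these windows. A further pair of DLX3 peaks, of score 102.44 and 163.2, lay 13854 and 12540 bp upstream, where each met a separate H3K4me3 peak (scores 415.31 and 89.8). Both were nearer to a start of the neighbour Ccdc9, at 8934 and 10248 bp.

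Zmat3 encodes an RNA-binding zinc finger protein induced by p53 (chr3:32334792-32365665), and was the only one of the 10 without DLX3. Its H3K4me3 peak, 3086 bp wide with a score of 1506.12, lay over the end of the gene with the higher coordinate and over the noncoding gene 4930429B21Rik. The nearest DLX3 peak, chr3:32396414-32397620, had a score of 193.87 and lay 30749 bp from the gene. That peak lay over a listed start of the neighbour Pik3ca and overlapped H3K4me3. With windows of 50 kb on either side it was counted, so that all 10 genes then had a DLX3 peak, for Zmat3 only this one at Pik3ca.

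Taking the starts alone, 6 of the 9 genes had DLX3 over a start, against 25.2% of the 17491 protein-coding genes with a listed start. H3K4me3 lay over a start of all 9, against 59.6%, and among the 10419 genes marked there 41.8% had DLX3 over a start. The nearest DLX3 centre was at a median of 129 bp from the start for the 9 genes, 28508 bp for all genes and 3842 bp for genes with a marked start. The scores of the 7 DLX3 peaks over starts ran in the order Btg2 (291.17), Sfn (214.66), Plk3 (184.28), Bbc3 (131.35), Ccng1 (120.77), Bbc3 again (94.92) and Mdm2 (90.8). With no replicate, which neighbours in this order differ beyond error is unknown.

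H3K4me3 at the 10 promoters mostly had higher scores and greater widths than the median peak over a gene start. The H3K4me3 peaks over the starts, with that over the end of Zmat3, had a median score of 2467.08 and a median width of 3407.5 bp, against 1212.65 and 2337 bp for the 9833 H3K4me3 peaks over a listed start of any protein-coding gene. All but Sfn exceeded that median score, and all but Sfn and Ccng1 that median width. Trp53, Cdkn1a and Bbc3 were at the ceiling, and together with Btg2 they had the widest peaks, from 5010 to 6259 bp. The order of H3K4me3 was not that of DLX3. Sfn had the weakest H3K4me3 over its start of the 10 and the next to highest DLX3 score there, while Trp53 and Cdkn1a, at the ceiling for H3K4me3, had no DLX3 over a start.

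**Figure D4:**
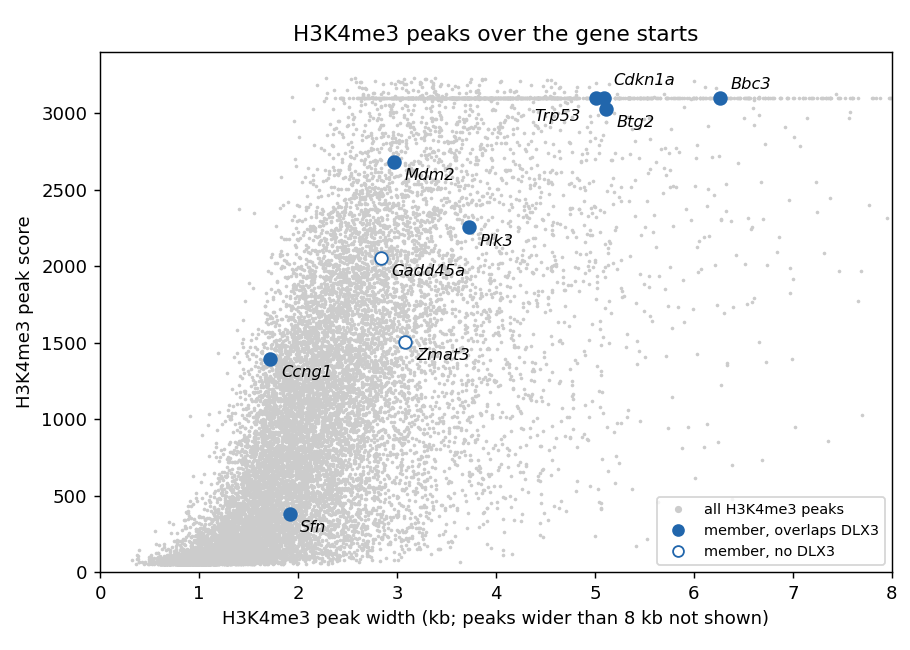
Width in kb and score of the H3K4me3 peaks over the starts of the 9 genes and over the upper end of Zmat3 (blue circles), with all H3K4me3 peaks up to 8 kb wide in grey. Filled circles overlap a DLX3 peak and open circles do not. The line of points at 3100 is the ceiling, where Trp53, Cdkn1a and Bbc3 stand; Sfn lies lowest at 379.96.

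Of 50 other genes of the pathway, read in the same way in 5 lists, 40 had a DLX3 peak in the window, with a median of 2 peaks, against a median of 1 over all protein-coding genes, of which 52.5% had a peak, or 70.6% of those with H3K4me3 in the window. H3K4me3 was in the window of 49 of the 50, Rprm being without it, and DLX3 lay over a start in 19 of the 41 with a listed start, against 25.2% of all genes with a listed start and 41.8% of those with a marked one, as 39 of the 41 were. Among arrest genes, 8 of 9 had a DLX3 peak, led by Btg1 (255.07) and Gadd45b (246.33), relatives of Btg2 and Gadd45a, and 5 of 9 had one over a start, 8 of the 9 having a marked start (41.8% of such genes overall). All 9 genes of metabolism, stress and autophagy had one, led by Ddit4, an inhibitor gene of growth signalling (510.2, rank 62 of the list), and the stress cytokine gene Gdf15 (255.22). At Gdf15 neither mark lay over the listed start, and the nearest DLX3 centre was 16982 bp from it. Each score in these lists is the highest in the window and may belong to a neighbouring gene. All 5 DNA repair genes had a DLX3 peak, led by Xpc (201.2), which recognises damaged DNA, and the replication clamp gene Pcna (154.52). Among genes of the p53 family and its regulators 12 of 15 did, led by the damage kinase gene Atm (172.83) and Trp73 (168.56).

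All 12 apoptosis genes had H3K4me3 and 6 had DLX3, against 52.5% of all protein-coding genes and 70.6% of those with H3K4me3. The highest scores were at Perp, a desmosomal gene as well as a p53 target, with 10 peaks of up to 410.54, and at Trp53inp1 (168.1). The 6 without any were Bax, Fas, Apaf1, Ei24, Siva1 and Bid, named here after their values were seen. Of the 8 apoptosis genes with a listed start, all of them marked there, 1 (Aen) had DLX3 over it, against 41.8% of genes with a marked start. Whether this list differs from the others was not tested.

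The relatives of the 10 genes, also singled out after their values were seen, repeated the pattern of each gene only in part. At Gadd45b, as at Gadd45a, the start lay under H3K4me3 without DLX3. Gadd45b had 7 DLX3 peaks, 6 of them on H3K4me3, and Gadd45g had 1, of score 73.07, over its start, whereas Gadd45a had 2 unmarked ones. Btg1 and Btg3 had 4 each, against 10 at Btg2, and both had DLX3 over a start. Plk2 had 2, with DLX3 over the start as at Plk3, and Ccng2 had 2, none over the start, unlike Ccng1. Mdm4, the relative of Mdm2, had none. Trp63 had 9 DLX3 peaks inside its long span, with a highest score of 131.91 and 1 of the 9 on H3K4me3, and Trp73 had 2, against 1 at Trp53. These 3 windows were of unlike length, 248326 bp for Trp63, 123627 bp for Trp73 and 51526 bp for Trp53, so the counts are not matched.

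The keratinocyte identity of the cells was read from H3K4me3 in the windows of marker genes. All 12 keratinocyte markers had H3K4me3, and 8 of 19 markers of other cells did, against 71.2% of all protein-coding genes. Markers of the basal layer were among those with it, Krt5 at a highest score of 1288.03 and Krt14 at 985.42. So were the suprabasal Lor at 2180.19, Sbsn at 1888.13, Krt10 at 1083.54, Krtdap at 755.31, Krt1 at 377.61 and Ivl at 76.82. Each score is the highest in the window and may belong to a neighbouring gene. The listed start of Krt10 was not under H3K4me3, while those of Krt5, Krt14, Lor, Sbsn, Krtdap and Ivl were. The suprabasal scores lay on both sides of the basal ones, so these window scores do not separate suprabasal from basal keratinocytes. Among fibroblast markers 4 of 5 did, at scores from 78.7 to 476.21, among immune markers 1 of 5 (Cd52, with Ptprc, Cd3e, Cd207 and Cd74 at 0), among endothelial markers 1 of 4 (Kdr) and among melanocyte markers 2 of 5 (Pmel and Dct). The summed highest scores were 17373.5 for the 12 keratinocyte markers and 4100.09 for the 19 others, of which Pmel made up 2282.68. Peaks of neighbouring genes in the windows count in these sums. Pmel has no listed start, and the listed start of Dct was not under H3K4me3, so neither is shown to be marked at its promoter. The part of other cells in the peaks at the p53 pathway genes was not tested.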

How the data were processed

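The members and gene lists were chosen with earlier results of these data known. Per the labels' protocols, chromatin was fixed with 1% formaldehyde, sonicated and precipitated, and libraries of about 250 bp were made with 15 PCR cycles. Per the submitters' processing notes, Bowtie 1.1.2, MACS 1.4.2 and HOMER were used with mm10. No source used here states their settings, or whether IgG was the control. The deposited lists give a score per peak, 1 list per library with nothing pooled. The score has the form of the MACS value, 10 times the negative log10 of p, and scores were compared within a list only. Depth is unknown.

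Gene spans, starts and sequences came from RefSeq (GRCm38.p6). All 10 members matched a span and 9 a start. Of the 21883 coding genes, 17491 have a listed start. The tables do not give exons, so exonic and intronic sites were not separated. Peak positions count from 1. Overlap needed 1 bp. Python 3.11.15 with pandas 2.3.3 was used, and the interval code was tested on simulated data. No test was made, as each antibody has 1 library. Named are all 10 members, the coding gene with the nearest start for each described peak, and, in each list of other pathway genes, the 2 highest DLX3 scores plus Trp63 and Trp73. Outside this rule, Rprm, Aen, the 6 apoptosis genes without DLX3, and Gadd45g, Btg3, Plk2, Ccng2 and Mdm4 were named after their values were seen. Alternatives changed the window, the score limit and the overlap.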

Additional observations from a re-analysis of the deposited data

How the results depend on the processing

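In all, 7 alternatives were run. The count of members with H3K4me3 stayed within 1.5 times its value under all of them, and the counts of members with DLX3, alone or on H3K4me3, under all but the top 20% of scores. That setting left 5 members with a DLX3 peak after 9, 4 among the 8 members still marked (39.7% of genes so marked), and 2 with DLX3 on H3K4me3 after 8 (7.39% of coding genes). Only 27.0% of coding genes were marked at that setting, so 7.39% is not a matched background for the marked members. The number of DLX3 peaks over the members, 36, became 11 on the gene span alone, 20 with 5 kb, 16 with 5 kb round the listed start alone (9 members) and 60 with 50 kb, as narrower and wider windows must give, and 17 with the top 20% of scores. The share of protein-coding genes with a DLX3 peak, 52.5%, became 35.8%, 41.5%, 32.6% and 63.9% in these windows, 18.1% with the top 20% and 36.0% with scores at or above the median. Counting peak centres changed no count of members with a peak, but left 35 DLX3 peaks after 36 and 52.3% of protein-coding genes after 52.5%. No paired analysis was possible because each antibody has 1 library. With no read counts, the depth behind a missing peak is unknown, so a gene without a peak is one where none was listed.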
